A study of Arabidopsis thaliana with 6 samples.

Results

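On ATH1 arrays of Arabidopsis thaliana shoots, 70 of 22746 plant probe sets were dim in wild type and clearly brighter in SPT4-R3, a plant line carrying RNA interference against SPT4. The rule took probe sets with a mean below 5 over the 3 wild-type arrays and a mean at least 1 higher over the 3 SPT4-R3 arrays. It also asked that every SPT4-R3 value lie above every wild-type value. All values are log2 signals, so a difference of 1 is a doubling, and the difference between the genotype means is called the rise below. Since these same arrays chose the members, their rises are a description and carry no test.

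The study compared 2 genotypes in the Col-0 background, wild type and the RNAi line numbered 3 of SPT4, with 3 arrays each. Both were grown on agar plates with MS medium for 10 days in 16 h of light and 8 h of dark, after 2 days of stratification, and the aerial parts were taken 2 h after the light came on. Only 1 RNAi line was compared here, and the promoter of its RNAi construct is not named in the labels. The labels name the samples biological replicates without saying whether they came from separate sowings, so any p-value measures only the spread between these samples.

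SPT4 and its partner SPT5 form a factor found from yeast to plants that binds RNA polymerase II and helps it to move along a gene. Many plant genes are silent in green shoots under favourable conditions and are transcribed in seeds, in other organs, or after heat, wounding or attack. Late embryogenesis abundant (LEA) proteins protect drying seeds, small heat shock proteins hold damaged proteins in solution, and chitinases, thaumatin-like proteins and defensins act against microbes.

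The RNAi target was checked first, by SPT4-1 alone. SPT4-1 (AT5G08565) read 5.79, 6.05 and 6.03 in the 3 wild-type samples, against 5.0, 4.89 and 4.97 under RNAi. It fell by 1.0 ± 0.0753 (SE, n = 3 per genotype; limma adjusted p = 2.15e-06). Across the plant probe sets 26.4% were called higher and 23.5% lower in SPT4-R3 by limma (adjusted p below 0.05), or 49.9% in either direction, so a call by itself was common. Pairs of arrays had correlations of 0.998 to 0.999 within a genotype and 0.976 to 0.977 across. The bacterial bioB, bioC and bioD controls had a mean of 9.01 ± 0.0302 (SD, n = 3) for wild type, against 8.62 ± 0.114 for SPT4-R3 (two-sided exact permutation p = 0.1, which is the lowest value 3 against 3 can give). Centring the arrays on them would add 0.39 to every difference below. The part of this control difference in the results was not tested.

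Whether the members are silent in wild type is only partly answered by the arrays. The trp control probe sets, for a bacterial gene that plants lack, ranged from 3.46 to 3.84. In wild type 6 of the 70 members had a mean at or below 3.84, and 5 of these carry a single gene name: M17, AT4G12500, AT2G23910, AT2G38465 and AT5G39070. For these the wild-type level cannot be told from background. The other members read above the trp range in wild type. That range rests on 3 probe sets and no detection call was used, so these readings do not show expression. Whether these members are off or weakly expressed in wild type is not known, and they are called dim here. A smaller number of cells with a transcript and less transcript per cell cannot be told apart in whole shoots.

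The members were a small part of the dim probe sets. Of 7746 probe sets with a wild-type mean below 5, the 70 members are 0.904%, and no other dim probe set was higher by 1. The demand that the genotypes not overlap therefore removed nothing. Non-overlap in this direction was in itself frequent, at 28.9% of all probe sets and 12.8% of the dim ones. Only 3 dim probe sets were lower by at least 1. Signals this near to the trp range have little room to fall by 1, so this count cannot be set against the 70. Among the 15000 brighter probe sets, 432 (2.88%) met the same limits on rise and overlap.

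**Figure D1:**
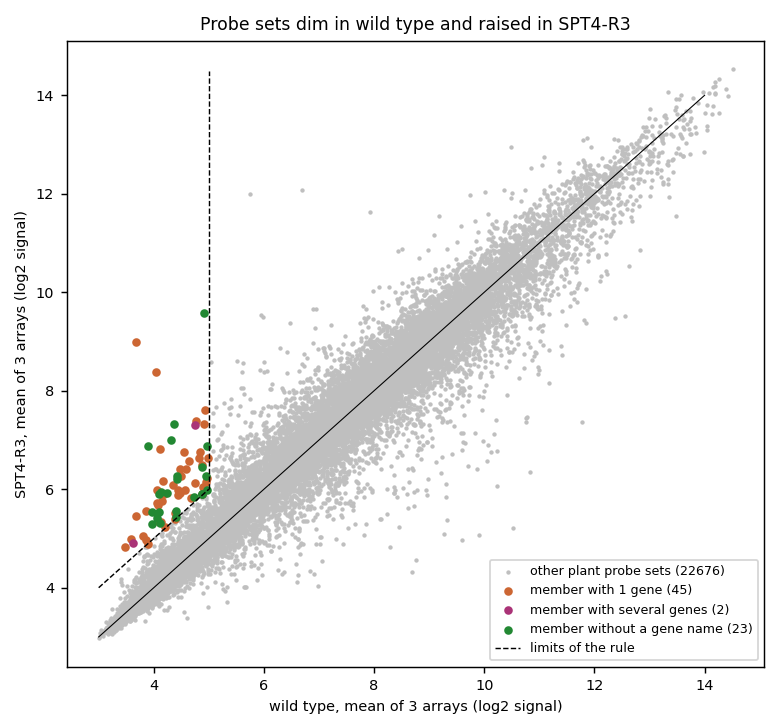
Mean log2 signal of every plant probe set in wild type (x axis, 3 arrays) and SPT4-R3 (y axis, 3 arrays), with the 70 members in colour, the solid line marking equal levels and the dashed lines the limits of the rule. The median member lies 1.61 above the line of equal levels, and M17, AT3G26460 and the unnamed probe set 247718_at stand highest above it.

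Rises ran from 1.01 to 5.31, with a median of 1.61 (3.05-fold). Of the 70 members, 31 had a rise of less than 1.5, 27 of 1.5 to 2, 9 of 2 to 3 and 3 of more. The median member stood at percentile 24.5 of all probe sets in wild type and at percentile 44.0 in SPT4-R3. In SPT4-R3, 17 members lay above 6.53, the median of all probe sets, so most remained among the weaker signals. Of the members 17.1% had a rise of 2 or more, against 10.2% of the 432 brighter probe sets, whose median rise was 1.24 and whose largest was 6.25. Both groups were chosen by the same contrast, and this difference has no test.

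The spread between arrays is given as a description, since the rule itself asked for a rise and for no overlap. Between arrays of a genotype the median SD of a member came to 0.106 for wild type and 0.121 for SPT4-R3, beside 0.0764 and 0.0654 over the dim probe sets. The smallest distance between the highest wild-type and the lowest SPT4-R3 value was 0.72. The median over the members was 4.38, 4.43 and 4.29 for wild-type replicates 1, 2 and 3, and 5.93, 6.11 and 5.95 for those of SPT4-R3. Among the SPT4-R3 arrays 25, 26 and 18 members were highest on replicates 1, 2 and 3, and 1 was tied.

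Of the 70 probe sets, 45 had 1 gene in the annotation used here, 2 had several and 23 had none. Each of the 45 genes was measured by 1 single-gene probe set only. The functions below come from general knowledge of the gene families, and the grouping by function was made after the values had been seen. For 9 genes no function is given.

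The member with the largest rise encodes a seed protein. M17 (AT2G41260) belongs to the LEA proteins of maturing embryos. It read 3.72, 3.61 and 3.72 in wild type, against 8.78, 9.17 and 9.04 in SPT4-R3. All wild-type values lay inside the trp range and all SPT4-R3 values far above it, a rise of 5.31. Since the wild-type level cannot be told from background, the size of this rise has no exact fold.

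Other seed and dehydration genes were divided. In a list of 23 LEA and dehydrin genes 12 were measured, and of the 11 beside M17, 3 rose, 3 fell and 5 did not pass the test. In all lists a gene counts as measured only where a probe set carries its name alone. The other listed genes may have values among the 8730 probe sets without a gene name or the 503 with several. Over all genes with a probe set of their own 24.7% were called higher and 21.6% lower, or 46.3% in all. AT3G02480, a LEA gene that missed the rule narrowly, rose from 5.04 ± 0.0929 (SD, n = 3) to 8.58 ± 0.131 (limma adjusted p = 7.95e-10). COR15B, a cold-induced chloroplast protein gene, rose by 0.41 ± 0.0618 (SE). The dehydrin genes COR47 and LTI30 fell, with differences of -2.38 ± 0.0602 and -0.79 ± 0.0670. M10 (AT2G41280), the nearest measured gene to M17 on one side with 1 annotated gene between them, is also a seed LEA gene and rose by 0.35 ± 0.0735 (limma adjusted p = 0.00265). The median difference of the 11 was -0.03, beside -0.003 over all genes. Of 16 seed storage and oil body genes 2 were measured, PAP85, a vicilin-type storage protein gene, at 4.37 and 4.67 (limma adjusted p = 0.00162) and the oleosin gene OLEO3 at 4.46 and 4.30 (adjusted p = 0.132).

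Lipid-binding proteins gave 2 members, with unlike rises. AT3G26460, of the Bet v 1-like polyketide cyclase and lipid transport family, read 3.89, 3.99 and 4.22 in wild type, against 8.47, 8.29 and 8.38 in SPT4-R3, a rise of 4.35. AT4G12500, a lipid transfer protein gene of the EARLI1 type, read 3.68, 3.74 and 3.62 against 5.40, 5.55 and 5.41, a rise of 1.77 from within the trp range. The genotypes were thus several units apart for the first gene and under 2 units apart for the second.

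Both lipid-binding members had relatives with other differences. Of 6 other measured MLP and Bet v 1-like genes, 2 rose, 1 fell and 3 did not pass the test. Over all genes 24.7% were called higher and 21.6% lower. AT4G23680 rose by 3.70 ± 0.0729 (SE) and AT4G23670 by 0.54 ± 0.0582, both from well-expressed levels. AT3G26450, which is directly next to AT3G26460, fell by 1.02 ± 0.0628 from 10.7. Of the EARLI1-type genes, AZI3 (AT4G12490), known from systemic defence and separated from AT4G12500 by 1 annotated gene, rose by 3.09 ± 0.0673 from 5.52, and AT4G22460 differed by -0.15 (limma adjusted p = 0.0673).

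Genes of defence made up 6 of the 47 members with a name. AT3G26470, with the RPW8 domain known from powdery mildew resistance, read 4.90, 4.59 and 4.82 in wild type, against 7.35, 7.40 and 7.43 in SPT4-R3. A probe set shared by the defensin-like genes AT5G33355 and AT3G59930 read 4.75 on each wild-type array and 7.28, 7.25 and 7.39 in SPT4-R3, and it cannot be divided between them. AT2G43620, of the chitinase family, read 4.74, 5.03 and 4.97 against 7.23, 7.40 and 7.36. The rises of these 3 were 2.62, 2.56 and 2.42, and they ended above the median of all probe sets. AT1G75050, a thaumatin-like gene, read 4.27, 4.21 and 4.08 against 5.73, 6.10 and 5.89. AT4G09420, of the TIR-NBS class of disease resistance genes, had a rise of 1.14 and the defensin gene PDF2.1 one of 1.12. The last was the least even of the 6, with SPT4-R3 values of 4.71, 5.21 and 4.98.

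The standard reporters of hormone-driven defence were few on the array as annotated. SAG101, of the salicylic acid pathway, rose by 0.47 ± 0.0789 (SE, limma adjusted p = 0.000661) and was the 1 measured gene of 16 on its list. Among 3 of 15 jasmonate genes, the thionin gene THI2.1 fell by 0.38 ± 0.0898, a direction lost when the arrays are centred on bioB, bioC and bioD (0.01), and no longer called when centred on dap, lys, phe and thr. The defensin genes PDF1.2A and PDF1.2B did not pass, the first with a difference of -0.10 (adjusted p = 0.332) and the second at 4.96 in both genotypes.

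Heat-related members were 3. AT2G29500, a small heat shock protein gene, read 4.39, 4.59 and 4.68 in wild type, against 6.71, 6.75 and 6.83 in SPT4-R3. A relative, AT5G47600, read 4.55, 4.67 and 4.56 against 6.36, 6.49 and 6.39. ROF2 (AT5G48570), a heat-induced immunophilin that binds chaperones, read 4.30, 4.63 and 4.37 against 5.94, 5.83 and 5.90. Their rises were 2.21, 1.82 and 1.46, and the SPT4-R3 values of each lay within 0.13 of each other. Of 14 listed heat shock genes 4 were measured, ROF2 among them. Of the 3 others, HSP15.7 rose by 0.45 ± 0.0726 (SE), while HSP17.6C differed by 0.04 (limma adjusted p = 0.691) and HSP22 by 0.05 (adjusted p = 0.495). None of these 3 differed by 1. Over all genes 24.7% were called higher and 21.6% lower.

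Cell wall enzymes contributed 3 members. AT3G15720, of the polygalacturonase family that cuts pectin, read 4.05, 4.12 and 4.19 in wild type, against 6.71, 6.85 and 6.86 in SPT4-R3, a rise of 2.69. AT5G04960, of the pectin methylesterase family, read 4.22, 4.05 and 3.95 against 5.53, 5.83 and 5.70, a rise of 1.61. GH9A3 (AT4G24260), a KORRIGAN-type endoglucanase, read 4.63, 4.55 and 4.52 against 5.99, 6.0 and 5.99, a rise of 1.43. The last SPT4-R3 values were the closest together of any member.

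Oxidoreductases were as many as defence genes, with a median rise of 1.26 against 2.07. CYP71B36 (AT3G26320), a cytochrome P450, was the largest of the 6 and read 4.86, 5.08 and 4.85 in wild type against 7.45, 7.71 and 7.64 in SPT4-R3. AT5G44390, of the berberine bridge enzyme-like family, read 4.46, 4.42 and 4.56 against 5.62, 6.15 and 6.01. Its rise was 1.45, and its SPT4-R3 values were the most spread of any member (SD 0.275). The other 4 had rises of 1.03 to 1.28. They are AT4G12290 and AT4G12280, copper amine oxidases under a shared probe set, the dioxygenase gene AT2G30840, and AT2G23910 and AT5G14700, which resemble cinnamoyl-CoA reductase.

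**Figure D2:**
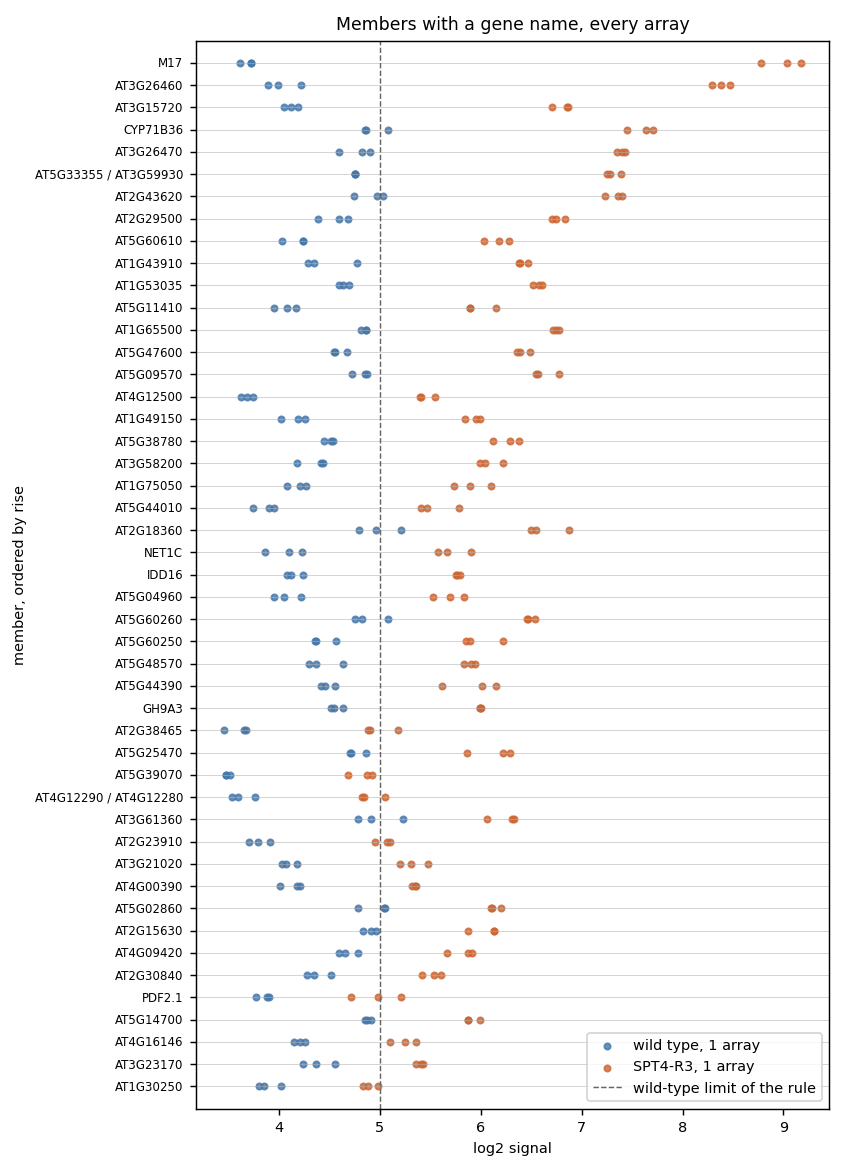
Log2 signal on each array (x axis) of the 47 members with a gene name, ordered by rise (y axis), with wild-type arrays in blue, SPT4-R3 arrays in orange and the wild-type limit of 5 dashed. In each row the 2 genotypes are apart, and the distance shrinks from 5.31 for M17 at the top to 1.01 for AT1G30250 at the bottom.

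Members that regulate other proteins or genes had rises between 1 and 2. AT5G60610, an F-box protein gene, read 4.03, 4.24 and 4.24 in wild type, against 6.18, 6.03 and 6.28 in SPT4-R3. AT5G11410, of the protein kinase family, read 4.17, 4.08 and 3.95 against 5.89, 6.15 and 5.89. AT3G58200, with a TRAF-like domain, read 4.42, 4.44 and 4.18 against 6.22, 5.99 and 6.04. Their rises of 1.99, 1.91 and 1.74 lie above the median of the members. AT5G60250, a RING finger gene, read 4.37, 4.57 and 4.36 against 5.89, 6.22 and 5.85, a rise of 1.55. The 3 transcription factor genes were IDD16 (AT1G25250), a zinc finger gene of the INDETERMINATE DOMAIN family, AT5G25470, with a B3 domain, and AT4G00390, of the GeBP family. IDD16 read 4.12, 4.24 and 4.08 against 5.79, 5.75 and 5.76. Their rises were 1.62, 1.37 and 1.21, and they reached 5.77, 6.12 and 5.34.

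Several members belong to families of enzymes, of organelle proteins or of the cytoskeleton. AT1G43910, of the AAA-type ATPases, read 4.77, 4.35 and 4.29 in wild type, against 6.47, 6.39 and 6.38 in SPT4-R3, and its wild-type SD of 0.262 was the highest of any member. AT5G09570, a twin-cysteine protein of mitochondria, read 4.85, 4.87 and 4.72 against 6.57, 6.55 and 6.78. AT5G38780, of the SABATH methyltransferases that methylate small acids, read 4.45, 4.54 and 4.52 against 6.38, 6.12 and 6.29. The rises of these 3 were 1.94, 1.82 and 1.76. AT2G18360, an alpha/beta hydrolase gene, read 4.96, 5.21 and 4.79 against 6.87, 6.55 and 6.5 and was the member closest to the wild-type limit, at 4.99. NET1C (AT4G02710), of the NETWORKED family that binds actin, read 3.86, 4.10 and 4.23 against 5.90, 5.58 and 5.67. The 3 pentatricopeptide repeat genes AT3G61360, AT5G02860 and AT2G15630, from a family that handles RNA in chloroplasts and mitochondria, had rises of only 1.26, 1.18 and 1.14 from wild-type levels of 4.90 to 4.97.

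For 9 genes with no function given here the rises ran from 1.01 to 1.93. AT1G53035 read 4.59, 4.63 and 4.69 in wild type, against 6.61, 6.52 and 6.58 in SPT4-R3. AT1G65500 read 4.86, 4.86 and 4.81 against 6.72, 6.75 and 6.78. For both the arrays of a genotype lay within 0.1 of each other. AT1G49150 read 4.19, 4.26 and 4.02 against 5.99, 5.84 and 5.95, and AT5G60260 read 5.08, 4.82 and 4.75 against 6.47, 6.54 and 6.46. AT5G44010 read 3.74, 3.95 and 3.90 against 5.41, 5.47 and 5.78. The other 4 were AT2G38465, with 3.65, 3.46 and 3.67 against 5.18, 4.90 and 4.88, and AT4G16146, AT3G23170 and AT1G30250. They reached only 4.90 to 5.40 in SPT4-R3. RefSeq lists 2 further members as pseudogenes, AT5G39070 (rise 1.34) and AT3G21020 (rise 1.24), both still below 5.5 in SPT4-R3.

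**Figure D3:**
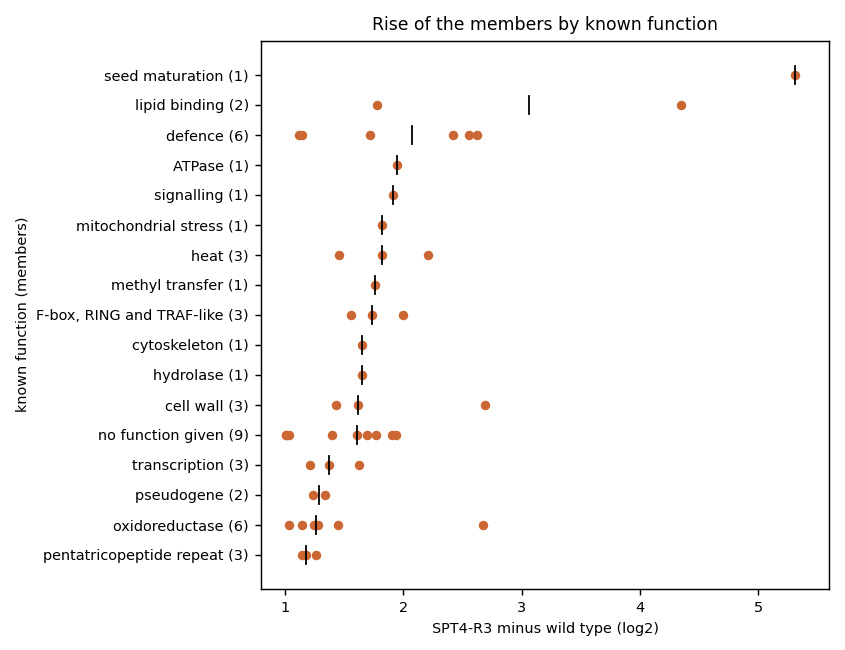
Rise in SPT4-R3 (x axis, log2) of the 47 members with a gene name, 1 point each, by known function (y axis, number of members in brackets), with the median of each function as a black bar. The seed maturation gene M17 and the lipid-binding gene AT3G26460 lie far to the right, at 5.31 and 4.35, and the pentatricopeptide repeat genes lie at the left end, at 1.14 to 1.26.

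Probe sets without a gene name were 23, or 32.9% of the members, against 28.5% of the dim probe sets. The largest was 247718_at, which read 4.93, 4.81 and 5.01 in wild type, against 9.66, 9.49 and 9.57 in SPT4-R3. It was the brightest member in SPT4-R3, with a rise of 4.66. The next were 266680_s_at, with a rise of 2.98 and an identifier that marks probes shared by several genes, and 255941_at, with a rise of 2.96. Their genes are not named here.

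Members near the limits show how the rule divided like probe sets. Just inside on the rise were AT1G30250 (1.01), AT3G23170 (1.01), 247617_at (1.02), 257504_at (1.03) and AT4G16146 (1.03). Just outside were AT1G15790 (0.99), 257460_at (0.99), 254396_at (0.98), AT3G26770 (0.98) and 248611_at (0.98). Just inside on the wild-type level were AT2G18360 (4.99), AT3G61360 (4.97), 247617_at (4.97), 263536_at (4.96) and AT5G02860 (4.96). Just outside were AT3G02480 (5.04), AT5G35735 (5.07), AT4G19460 (5.08), 267128_at (5.08) and 250287_at (5.08), of which AT3G02480 rose by 3.54 and AT5G35735 by 2.47. With 1 array left out at a time, 56 of the 70 members met the rule every time, and the rule found 66 to 74 probe sets. The 14 that did not include AT2G43620 and AT2G18360, whose wild-type means reach 5 without wild-type replicate 1.

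By the locus names, chromosome 5 held 15 of the 45 single-gene members (33.3%), against 22.5% of the measured genes. Chromosome 1 held 7 (15.6%, against 25.8%), chromosome 2 held 9, chromosome 3 held 8 and chromosome 4 held 6. No test was made of this distribution.

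Members with a single gene lay directly next to each other in 2 places by the gene order of RefSeq (TAIR10.1). Members without a gene name could not be placed. On chromosome 3 AT3G26460 and AT3G26470 were adjacent, with CYP71B36 on the same side of the chromosome 16 annotated genes before them. Of the 8 measured genes between CYP71B36 and AT3G26460, 3 (37.5%) rose, 1 (12.5%) fell and 4 did not pass the test. The shares over all genes were 24.7% higher and 21.6% lower. Those of the 8 that rose were AT3G26380, by 0.72 ± 0.0551 (SE), CYP71B37, by 0.31, and AT3G26370, by 0.20, and AT3G26450 fell by 1.02. On chromosome 5 AT5G60250 and AT5G60260 were adjacent, with rises of 1.55 and 1.61. The nearest measured genes on either side of this pair, AT5G60240 and AT5G60290, differed by -0.20 (adjusted p = 0.0684) and -0.12 (adjusted p = 0.281). AT5G60240 is directly beside AT5G60250, but 4 annotated genes without a single-gene probe set lie between AT5G60260 and AT5G60290. A member without a gene name could lie among these 4, so the extent of this group is not known.

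**Figure D4:**
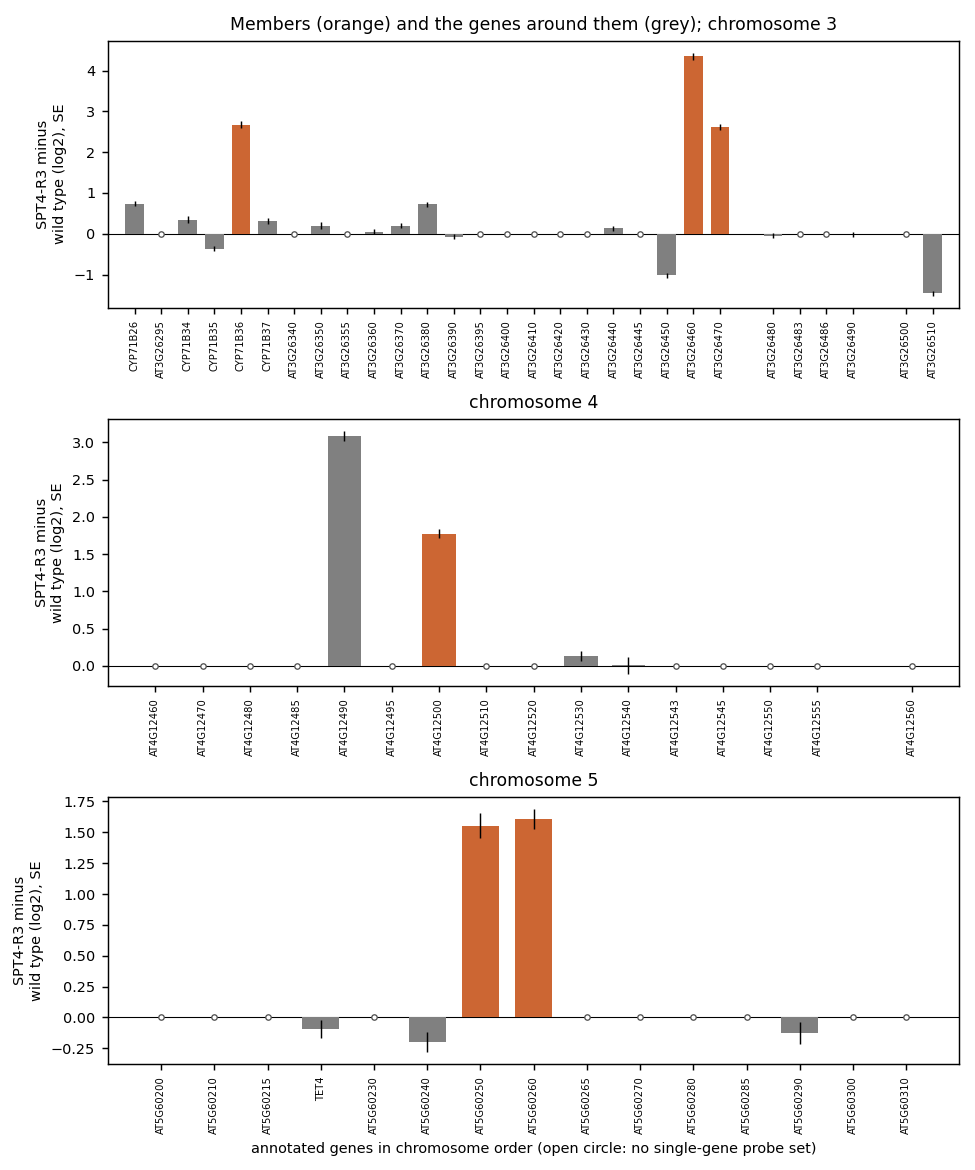
Difference between SPT4-R3 and wild type (y axis, log2, with the SE of the limma fit) of genes in chromosome order (x axis) around 3 groups of members, with members in orange, other measured genes in grey and open circles for genes without a single-gene probe set. AT3G26460 stands at 4.35 beside AT3G26450 at -1.02, and AT4G12500 is accompanied by AT4G12490 at 3.09.

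Genes nearest to members were called in both directions. The 45 members had 86 different nearest measured neighbours that were no members, of which 23 (26.7%) rose and 17 (19.8%) fell by limma, near the 24.7% and 21.6% over all genes. Their median difference was 0.03. Without SPT4-R3 replicate 3 the number that fell was 11. Of the 35 neighbours with no annotated gene in between, 10 (28.6%) rose, 12 (34.3%) fell and 13 did not pass the test, with a median difference of 0.01. That is 62.9% called, beside 46.3% over all genes, and this difference was not tested. On arrays centred on bioB, bioC and bioD, 70 of the 86 (81.4%) were higher and 5 (5.81%) lower, beside 76.5% and 6.99% of all probe sets. Whether neighbours share strand or promoter was not examined.

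Some nearby genes went in opposite directions, and others rose together. CYP71B36, with its rise of 2.67, lay between relatives. CYP71B35 on one side fell by 0.37 ± 0.0630 (SE) and CYP71B37 on the other rose by 0.31 ± 0.0744. AT5G44390 lay between the berberine bridge enzyme-like genes AT5G44380, which rose by 0.58 ± 0.0499, and AT5G44400, which fell by 0.62 ± 0.0611. AT1G65500 lay beside AT1G65490, which fell by 1.77 ± 0.0585 from 11.6. PDF2.1 had defensin genes as nearest measured neighbours on both sides, and both also rose, from high levels. LCR69, with 2 annotated genes in between, rose by 1.42 ± 0.0542, and LCR68, directly next to PDF2.1, by 0.46 ± 0.0716. The pairs in this paragraph were picked after their values had been seen.

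Further neighbours that changed by at least 0.5 fell on both sides of 0. Those that rose were WNK7 (1.10), a kinase gene beside AT1G49150, AT2G18370 (1.07) beside AT2G18360, AT3G15710 (0.88) beside AT3G15720, AT5G60630 (0.76), AT5G25450 (0.63), AT5G44000 (0.61), AT4G02720 (0.56) and the ribosomal protein gene AT5G02870 (0.52) beside AT5G02860. Those with lower signal were AT5G11420 (-1.25), AT5G44020 (-1.09) beside AT5G44010, AT3G23160 (-0.55) and AT2G30890 (-0.51). Each had a limma adjusted p of at most 0.000107 over all probe sets. With the arrays centred on bioB, bioC and bioD, AT3G23160 and AT2G30890 no longer passed.

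Lists of genes for other organs and stresses gave the surroundings of the members. They were written with earlier results of these data known. In all, 17 lists with 223 entries had 65 measured genes, among them the 4 members M17, AT3G26460, AT4G12500 and ROF2. Of the other 61, 19 (31.1%) rose, 16 (26.2%) fell and 26 did not pass, with a median of -0.003, beside 24.7% higher and 21.6% lower over all genes. None of the 4 measured of 15 root markers passed the test. EXPA7 stood at 4.95 and 4.83, EXPA18 at 5.14 and 5.15 and PRX44 at 4.23 and 4.22 in wild type and SPT4-R3. PYK10 was bright at 11.8 in both, although only aerial parts were taken. The tapetum gene A9 stayed inside the trp range at 3.76 and 3.73, and no flower marker of 10 was analysed here. RCA, of the photosynthetic apparatus of green leaves, was bright at 14.4 and 14.1 (difference -0.27, limma adjusted p = 0.00204, 0.12 when centred on bioB, bioC and bioD, and no longer called when centred on dap, lys, phe and thr). Their part in the members' rise was not tested.

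The remaining stress lists held no named member, and the 23 members without a gene name could not be matched to any list. In the list for low oxygen PDC2, a pyruvate decarboxylase of fermentation, rose by 2.90 ± 0.0555 (SE) and LDH, a lactate dehydrogenase, by 1.25 ± 0.0574. Of 16 listed genes 5 were measured. Of these 3 rose, 1 fell and 1 did not pass, beside 24.7% higher and 21.6% lower over all genes. The one that fell, AT3G10020 (-0.52), no longer passed when centred on bioB, bioC and bioD (-0.13, adjusted p = 0.242). The CC-type glutaredoxins, small redox proteins, were split evenly, with 6 of 17 higher and 6 lower. AT4G15680 rose by 2.77 ± 0.0608 and AT4G15690 by 1.77 ± 0.0715, while AT3G62950 fell by 2.94 ± 0.0717. SWEET15, a sugar exporter of senescing leaves, fell by 1.12 ± 0.0523, and HIS1-3, a drought-induced linker histone, differed by 0.23 (adjusted p = 0.106). SWEET15 was the 1 measured of 6 senescence genes, and HIS1-3 the 1 measured of 16 drought and abscisic acid genes. Of 16 nutrient starvation genes 2 were measured. BHLH101 fell by 1.44 ± 0.0563 and BGLU28 rose by 0.18 ± 0.0602, a call lost without any 1 of 5 arrays (all but wild-type replicate 2). QQS, the 1 measured of 4 genes that DNA methylation can silence, read 6.93 in wild type, above the level of the members, and fell by 0.17 ± 0.0587. That call was lost when 1 of 4 arrays was left out (replicates 1 and 3 of wild type, 1 and 2 of SPT4-R3), with limma's trend and robust settings (adjusted p = 0.0592) and when centred on dap, lys, phe and thr (-0.02), and the direction turned to 0.22 when centred on bioB, bioC and bioD.

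**Figure D5:**
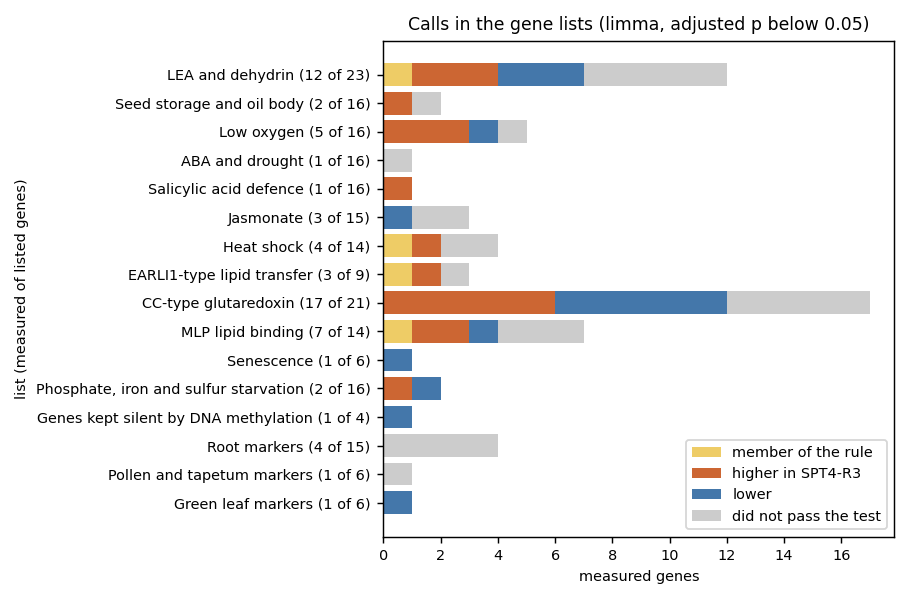
Number of measured genes (x axis) in each list (y axis, measured of listed genes), divided into members, other genes higher in SPT4-R3, genes lower and genes that did not pass the limma test. Among the measured genes no list consists of members only, and the LEA and dehydrin genes beside M17 are divided into 3 higher, 3 lower and 5 that did not pass. Members without a gene name could not be matched to a list.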

How the data were processed

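Total RNA from 6 samples was hybridised to 1 single-colour Affymetrix ATH1 array each. The deposited values are log2 signals, 1 per probe set and array, with Affymetrix Expression Console as the tool per the submitters' processing notes. How signals were summarised, background-corrected and normalized is not stated there. Precision is limited by having 3 arrays a genotype, and detection calls were not used.

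The table's 64 array controls were set aside. Probe sets were named from an annotation table of the platform, 13513 with 1 gene, 503 with several and 8730 with none, and 13436 of the first were updated by Entrez identifier from RefSeq (TAIR10.1), which also gave gene order. No sequence of a member was used here. Where probe sets shared a gene, the brightest stood for it.

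The rule was applied to the deposited values. All other comparisons across genes used limma (version 3.58.1, R 4.3.3; two-sided moderated test, Benjamini-Hochberg over 22746 probe sets, threshold 0.05), after the same code had been tested on simulated data. The members and lists were chosen with earlier results of these data known. Named were all single-gene members, the largest 30 with every array, the 5 probe sets on each side of each limit, up to 4 called genes per list, and neighbours called with a difference of at least 0.5. Neighbours that share a family with a member, genes around adjacent members, and list genes that did not pass, were named after their values were seen. Alternatives were other scalings, variance settings, a filter on dim probe sets, the replicate number as a block, other limits of the rule and each array left out.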

Additional observations from a re-analysis of the deposited data

How the results depend on the processing

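The rule found 68 members after centring on array medians, 70 after quantile normalization, 97 when centred on dap, lys, phe and thr and 173 on bioB, bioC and bioD; 68 of the 70 were found under all 4 scalings, AT1G30250 and AT3G23170 being lost on array medians. Their median rise was 1.76 and 2.00 on the 2 control scalings and 1.56 to 1.62 with 1 array left out. A wild-type limit of 4.5 or 5.5 gave 43 or 116 members, and a rise of 0.8 or 1.5 gave 107 or 39, with medians of 1.21 and 1.82. Without shared-probe identifiers 67 remained. Over all probe sets 6007 were higher and 5344 lower, against 17406 and 1589 on bioB, bioC and bioD, which put the overall median difference at 0.39, and 2478 lower on dap, lys, phe and thr, which put it at 0.15. Calls in the lists went from 23 higher and 16 lower to 50 and 9 on the first of these and to 10 lower on the second, and neighbours from 23 and 17 to 70 and 5 and to 7 lower. With 1 array left out, neighbours numbered 21 to 23 higher and 11 to 16 lower. On bioB, bioC and bioD THI2.1 turned to 0.01, QQS to 0.22 and RCA to 0.12. The replicate numbers did not pair the arrays (correlations of deviations -0.240, -0.126 and -0.0645). With the replicate number as a block 5663 probe sets were higher and 5007 lower, and SPT4-1 kept its difference of -1.0 (limma adjusted p = 1.25e-05). The block ended the calls of BGLU28 (adjusted p = 0.0522) and QQS (adjusted p = 0.064). The bioB, bioC and bioD difference was -0.33 to -0.43 with 1 array left out. The cause of the changes under the control scalings was not tested beyond the common shift that they add.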
